A study of Rattus norvegicus with 6 samples.

Results

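The miR-322 to miR-450a cluster is a group of 6 microRNA hairpins that lie close together on the rat X chromosome: rno-mir-322, rno-mir-503, rno-mir-351, rno-mir-542, rno-mir-450b and rno-mir-450a. Its members were taken by hairpin name, with trailing copy numbers ignored, and each sequenced tag was given to the 5p or the 3p arm according to whether its centre falls before or after the middle of the hairpin. The files list 12 hairpin names of the cluster, which stand for 6 distinct hairpin sequences, among 281 annotated and 540 predicted names. Of its 12 possible mature arms 10 were listed, of 932 arms in the whole series; the miR-542-5p and miR-450a-3p arms were not listed in any library. Small RNA was sequenced from RSC96 cells, an established rat Schwann line, kept for 48 h in high glucose (3 libraries) or in low glucose, the control condition (3 libraries). Glucose concentrations are not given in the labels. The series title speaks of Schwann cell exosomes, the labels do not say whether vesicles or whole cells were extracted, and their extraction text names retina, another tissue. RSC96 is a single established line, and nothing in the labels says that the libraries came from separate cultures.

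MicroRNAs are cut from hairpins in a longer primary transcript, and the arm that is loaded into the silencing complex pairs with messenger RNAs mainly through its seed, bases 2 to 8. The miR-322 and miR-503 hairpins, the rodent counterparts of human miR-424 and miR-503, are known for slowing the cell cycle and promoting muscle differentiation. As hairpins of one cluster can be cut from one primary transcript, their mature arms need not reach the same level, since cutting, arm choice and decay act on each hairpin separately.

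In RefSeq's annotation of the GRCr8 assembly the 6 hairpins lie on the minus strand within 5309 bp. They are Mir322 at chrX:137726147-137726241, Mir503 at chrX:137725856-137725926, Mir351 at chrX:137725116-137725196, Mir542 at chrX:137722176-137722254, Mir450b-1 at chrX:137721078-137721146 and Mir450a1 at chrX:137720933-137721023. Mir322, Mir503 and Mir351 fall within the extent of LOC102550366, a long non-coding RNA gene at chrX:137724960-137729208, and the other 3 lie outside it; its strand is not in the table used. Each hairpin sequence in the files equals the RefSeq one letter for letter.

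The mature sequences of the 10 listed arms, from RefSeq, show which of them share a seed, which is in capitals.
miR-322-5p: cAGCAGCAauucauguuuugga
miR-322-3p: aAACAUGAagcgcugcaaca
miR-503-5p: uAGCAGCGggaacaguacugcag
miR-503-3p: gGAGUAUUguuuccgcugccugg
miR-351-5p: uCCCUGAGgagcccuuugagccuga
miR-351-3p: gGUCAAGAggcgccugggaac
miR-542-3p: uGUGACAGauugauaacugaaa
miR-450b-5p: uUUUGCGAuguguuccuaaua
miR-450b-3p: aUUGGGGAcgcuucgcauuca
miR-450a-5p: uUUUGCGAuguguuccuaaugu
miR-450b-5p and miR-450a-5p share the seed UUUGCGA. miR-322-5p has the seed AGCAGCA of miR-16-5p, and miR-503-5p shares its bases 2 to 7, AGCAGC. miR-351-5p has the seed CCCUGAG of miR-125a-5p and miR-125b-5p. The other arms each had a seed of their own within the cluster.

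Depth differed between the groups. The high glucose libraries held 963706 to 1354456 counts and the low glucose libraries 114615 to 148143, a 9.31-fold difference between the group means, so a small count in low glucose is the least precise value here. The files list a sequence only from a minimum count of 2 per hairpin name, and its reads are divided among the names under which it is listed. A sequence of a singly named hairpin therefore needed 2 reads to appear, one listed under 2 names 3 reads, and one listed under 3 names, as for mir-542, 5 reads. No pair of libraries of a group looked like one library deposited again: chi-square over its degrees of freedom was 4.19 to 101. In a bulk library, fewer cells that make a microRNA and less of it per cell cannot be told apart.

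The hairpins of the cluster moved in opposite directions. In high glucose miR-351-5p and miR-322-3p were higher, and miR-503-5p, miR-542-3p, miR-450b-5p and miR-450a-5p, from the same cluster, were lower. With calls made by edgeR (quasi-likelihood test, Benjamini-Hochberg adjusted p under 0.05), 5 of the 10 listed arms were higher, 4 were lower and 1, miR-322-5p, was not called. Of the higher ones, miR-351-3p, miR-450b-3p and miR-503-3p had 0 to 4 counts in each low glucose library. They passed the filter on low counts only through the deeper high glucose libraries, so their calls say little. Over all 297 tested arms 41.1% were called higher and 22.6% lower, and 63.6% were called in either direction. Scaling to the upper quartile shifted the median log2 fold change over the tested arms by -0.56, and with it 49.5% of all calls were higher in place of 64.6%, and 3 cluster arms were higher and 4 lower. The median log2 fold change was -0.02 for the cluster's arms and 0.68 for all tested arms, in both with arms near 0 in low glucose included. For the cluster's 6 hairpins, both arms joined, it was -0.72, against 0.48 for all tested hairpins. The median over all tested arms varied with the processing. It was 0.000608 when every library was thinned to 114497 reads, and 0.477 with annotated hairpins only. All high glucose libraries stood above the low glucose ones in 5 cluster arms, those near 0 in low glucose included, and below them in 4. Over all tested arms the shares were 45.8% and 25.9%.

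**Figure D1:**
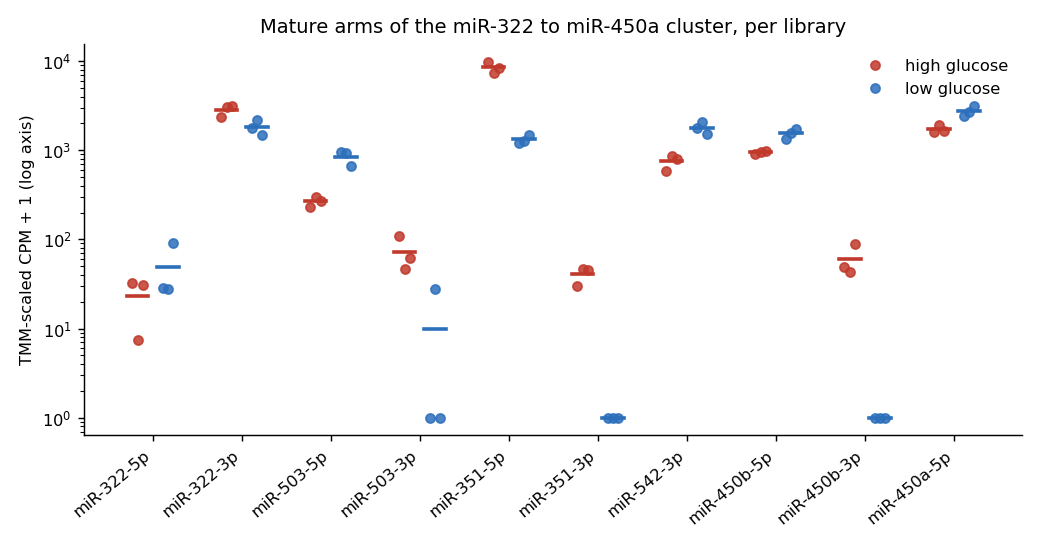
TMM-scaled CPM (plus 1, log axis) of the 10 listed arms in each high glucose library (red, left of each pair) and low glucose library (blue, right), with the group means as bars. miR-351-5p is the arm with the highest level in high glucose and its groups are far apart, while miR-351-3p and miR-450b-3p are listed at 0 in the low glucose libraries.

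miR-351-5p was the most abundant arm of the cluster in high glucose. It had 9490, 9046 and 10106 counts in the high glucose libraries, against 172, 190 and 166 counts in the low glucose libraries. Scaled to library size (CPM, with TMM factors), these are 9823, 7388 and 8269 CPM in high glucose, against 1198, 1273 and 1487 CPM in low glucose. The groups were far apart, and each high glucose library stood above all low glucose ones. The level was 8494 ± 1233 CPM in high glucose, against 1319 ± 150 CPM in low glucose (± SD, n = 3 per group), a 6.44-fold rise (log2 fold change 2.69, SE 0.18, edgeR adjusted p = 2.73e-05). The call held in every fit tried, with log2 fold changes from 2.10 to 2.82.

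miR-322-3p, the opposite strand of the hairpin that gives miR-322-5p, had 2329, 3082 and 3154 CPM in high glucose, against 1796, 2198 and 1487 CPM in low glucose. The groups did not overlap, but the gap between the lowest high glucose and the highest low glucose library was small. Its log2 fold change was 0.64 (SE 0.21, edgeR adjusted p = 0.0259). The call was lost with upper quartile scaling, where the log2 fold change was 0.04 (edgeR adjusted p = 0.898), with relative log expression scaling (0.0747), with library totals only (0.0604) and with DESeq2 (adjusted p = 0.0796), and without high glucose replicate 2 or 3 or low glucose replicate 1 or 3, where the edgeR adjusted p was 0.0949 to 0.104. miR-322-5p, the arm with the miR-16 seed, was close to the listing minimum. It had 30, 8 and 36 counts in high glucose, against 4, 4 and 10 counts in low glucose, and its levels overlapped (log2 fold change -1.06, SE 0.78, edgeR adjusted p = 0.270).

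miR-503-5p, a repressor of cell cycle genes, had 224, 368 and 328 counts in high glucose, against 136, 138 and 74 counts in low glucose. After scaling these were 232, 300.5 and 268 CPM in high glucose, against 947, 925 and 663 CPM in low glucose, so the raw counts were higher and the scaled levels lower in high glucose. The level was 267 ± 34.4 CPM in high glucose, against 845 ± 158 CPM in low glucose (± SD, n = 3 per group), 3.17-fold lower in high glucose (log2 fold change -1.66, SE 0.22, edgeR adjusted p = 0.000572). It thus fell while miR-322-3p, whose hairpin lies 220 bp away, did not fall.

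miR-542-3p, known in human cells to repress the survival protein survivin, had 567, 1065 and 978 counts in high glucose, against 255, 309 and 171 counts in low glucose. Its level was 752 ± 147 CPM in high glucose, against 1793 ± 270 CPM in low glucose (± SD, n = 3 per group), with no overlap between the groups. It was 2.38-fold lower in high glucose (log2 fold change -1.25, SE 0.21, edgeR adjusted p = 0.00152). The calls of miR-503-5p and miR-542-3p held in every fit tried.

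miR-450a-5p and miR-450b-5p fell together. miR-450a-5p had 1604, 1896 and 1640 CPM in high glucose, against 2430, 2714 and 3153 CPM in low glucose, and was 1.61-fold lower (log2 fold change -0.69, SE 0.17, edgeR adjusted p = 0.00767). miR-450b-5p had 909, 956 and 992 CPM in high glucose, against 1351, 1555 and 1720 CPM in low glucose, and was 1.62-fold lower (log2 fold change -0.69, SE 0.17, edgeR adjusted p = 0.0075). For both, all high glucose libraries stood below the low glucose ones. Both calls were lost without low glucose replicate 2 (edgeR adjusted p = 0.0611). The levels of this pair are not independent, because their first 20 bases are the same and the reads of a 20 nt sequence were divided between them. Sequences listed under another miRNA held 45.8%, 48.5% and 50.5% of the miR-450b-5p counts in high glucose, and 34.0%, 35.3% and 28.1% in low glucose. From sequences that name only 1 miRNA, the log2 fold change was -1.14 for miR-450b-5p (edgeR adjusted p = 0.000662) and -0.81 for miR-450a-5p (edgeR adjusted p = 0.00321).

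**Figure D2:**
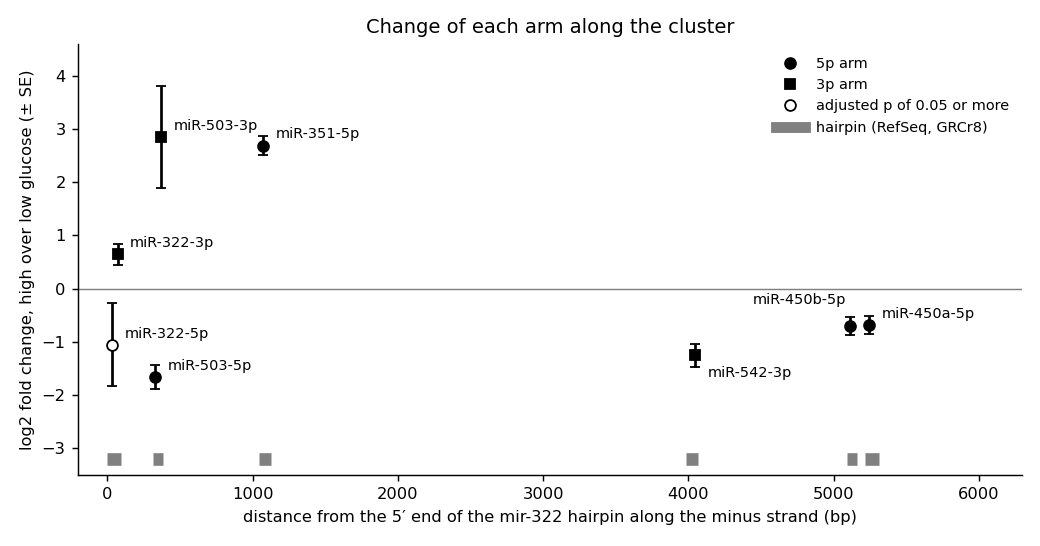
Log2 fold change of high over low glucose (± SE) of the 8 arms listed in both groups, plotted at the arm's distance from the 5′ end of the mir-322 hairpin, with the hairpins as grey bars at the bottom. The mir-351 and mir-503 hairpins are neighbours on the map, and miR-351-5p and miR-503-5p have log2 fold changes of 2.69 and -1.66. Between these arms lies miR-503-3p, at 2.85 from few reads.

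The minor arms miR-351-3p, miR-450b-3p and miR-503-3p were also called higher, from few reads. miR-351-3p had 28, 56 and 54 counts in high glucose and was listed at 0 in all low glucose libraries (edgeR adjusted p = 0.00528). miR-450b-3p had 46, 52 and 106 counts in high glucose and was likewise listed at 0 in low glucose (edgeR adjusted p = 0.00432). miR-503-3p had 104, 56 and 74 counts in high glucose, against 0, 4 and 0 counts in low glucose (edgeR adjusted p = 0.0313), a call lost with upper quartile scaling, without low glucose replicate 1 or 3, with a replicate block and with exactly matching sequences only. No fold is given for the arms listed at 0, since sequences below the listing minimum are not shown. When every library was thinned to 114497 reads and the minimum applied again, the high glucose libraries listed 4, 0 and 4 counts of miR-351-3p, 0, 6 and 8 of miR-450b-3p, and 4, 4 and 0 of miR-503-3p. At equal depth these 3 arms were thus near the listing minimum in high glucose too, and too low to be tested.

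With both arms of each hairpin joined, mir-351 and mir-322 were higher and the other 4 hairpins lower by edgeR's quasi-likelihood test, where 37.8% of all 254 tested hairpins were called higher and 24.8% lower. The hairpin log2 fold changes were 2.63 for mir-351, 0.54 for mir-322 (edgeR adjusted p = 0.0378), -1.42 for mir-503, -1.33 for mir-542, -0.68 for mir-450b and -0.77 for mir-450a. The mir-322 call was lost with the replicate block (edgeR adjusted p = 0.0783), with relative log expression scaling, with library totals only and with DESeq2, and without high glucose replicate 2 or 3 or low glucose replicate 1 or 3. That of mir-450b was lost with no filter on low counts and without low glucose replicate 3 (edgeR adjusted p = 0.0568).

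The division of the cluster's counts among its hairpins does not depend on the scaling to library size. rno-mir-351 took 62.8%, 50.8% and 54.2% of the cluster's counts in the high glucose libraries, against 12.6%, 11.8% and 14.7% in the low glucose libraries. rno-mir-450a took 10.2%, 13.0% and 10.7% in high glucose, against 25.5%, 25.2% and 31.1% in low glucose. mir-351 was the largest of the 6 hairpins in every high glucose library, and mir-450a in every low glucose library. rno-mir-542 had 4.97% ± 1.12 of the cluster's counts in high glucose, against 17.7% ± 2.21 in low glucose, and rno-mir-503 had 2.22% ± 0.124 in high glucose, against 8.43% ± 1.73 in low glucose (± SD, n = 3 per group). mir-322 had 19.0% ± 3.41 in high glucose, against 18.4% ± 2.60 in low glucose (± SD, n = 3 per group), and its libraries overlapped. By exact two-sided permutation tests over libraries, 5 of the 6 shares had p = 0.1, the smallest that 3 against 3 libraries allow (0.12 adjusted over the 6), and that of mir-322 had p = 0.8. Together the hairpins made up 1.45% ± 0.105 of all listed counts in high glucose, against 1.06% ± 0.0639 in low glucose (± SD, n = 3 per group; exact permutation p = 0.1).

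**Figure D3:**
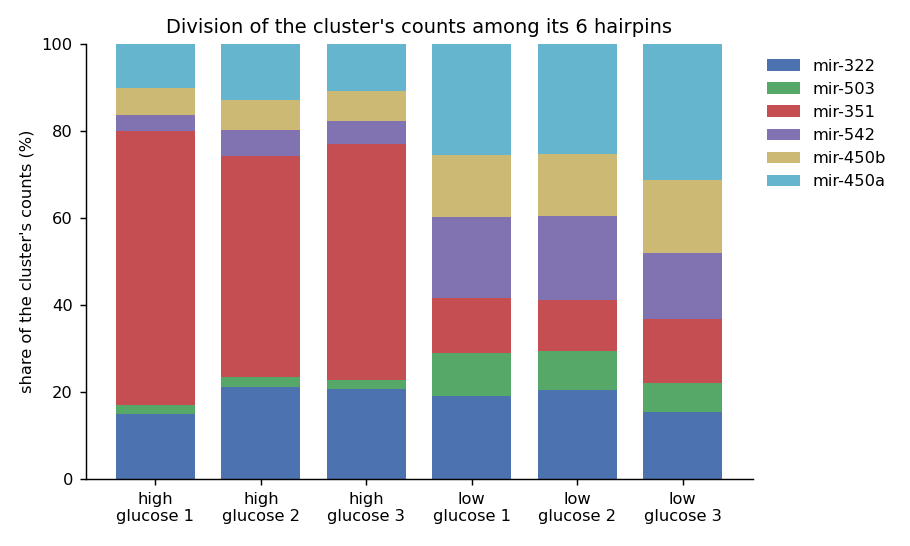
Share of the cluster's counts (%) in each of its 6 hairpins, one bar per library, with the high glucose libraries on the left. mir-351 takes 50.8% to 62.8% of each high glucose bar and 11.8% to 14.7% of each low glucose bar.

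Because a larger mir-351 share lowers all others, ratios of pairs of arms were also compared within each library. miR-351-5p over miR-450a-5p was 6.12, 3.90 and 5.04 in high glucose, against 0.493, 0.469 and 0.472 in low glucose. Leaving miR-351 aside, miR-322-3p over miR-542-3p was 3.97, 3.54 and 3.94 in high glucose, against 1.01, 1.06 and 0.971 in low glucose. miR-322-3p over miR-503-5p was 10.04, 10.3 and 11.8 in high glucose, against 1.897, 2.38 and 2.24 in low glucose. These ratios did not overlap between the groups. miR-450a-5p over miR-542-3p was 2.73, 2.18 and 2.05 in high glucose, against 1.37, 1.31 and 2.06 in low glucose, with overlap. Of 7 such ratios, 5 had an exact permutation p of 0.1 (0.14 adjusted over the 7), that of miR-450a-5p over miR-542-3p had 0.2, and that of miR-450a-5p over miR-450b-5p had 1. The last ratio was 1.77, 1.98 and 1.65 in high glucose, against 1.80, 1.75 and 1.83 in low glucose, but the division of shared reads by the number of hairpin names fixes part of it. From sequences listed under 1 miRNA only, it was 2.83, 3.38 and 2.83 in high glucose, against 2.45, 2.41 and 2.36 in low glucose, without overlap (exact permutation p = 0.1, 0.117 adjusted over the 7).

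The arms of a hairpin were unequal, and which arm was dominant differed between hairpins. The 5p arm held nearly all counts of mir-351, mir-450b and mir-450a, and the 3p arm those of mir-322 and mir-542. For mir-322 the 5p share was 1.32%, 0.212% and 0.925% in high glucose, against 1.53%, 1.20% and 5.68% in low glucose, with overlap (exact permutation p = 0.2). The exact 95% binomial interval of the last library, from 10 of 176 counts, was 2.76% to 10.2%. Binomial intervals cover counting error only, as the labels name no molecular identifiers.

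mir-503 was the hairpin whose arm share differed most. Its 5p share was 68.3%, 86.8% and 81.6% in high glucose, against 100%, 97.2% and 100% in low glucose, with exact 95% binomial intervals of 63.0% to 73.3%, 83.2% to 89.9% and 77.5% to 85.3% in high glucose and lower bounds of 97.3%, 92.9% and 95.1% in low glucose. The groups did not overlap, and the exact two-sided permutation p was 0.1, or 0.2 adjusted over the 6 hairpins. In the thinned libraries the share was 84.6%, 80.0% and 100% in high glucose, against 100%, 96.2% and 100% in low glucose, so that the groups overlapped at equal depth. For mir-450b the 5p share was 95.02%, 95.7% and 92.0% in high glucose, against 100% in each low glucose library, where the 3p arm was listed at 0. For mir-351 it was 99.4% to 99.7% in high glucose, against 100% in each low glucose library. In the thinned high glucose libraries the share was 100%, 94.2% and 92.2% for mir-450b, and 99.6%, 100% and 99.5% for mir-351. For both hairpins the groups thus met at 100% at equal depth.

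The reads of an arm are a mixture of forms that differ mostly at the 3′ end. For miR-351-5p the most counted forms were the following reads, shown because many of them end in a T that is not in the hairpin. A capital marks a last base that does not match the hairpin.
tailed 25 nt form: tccctgaggagccctttgagcctgT
24 nt form: tccctgaggagccctttgagcctg
tailed 24 nt form: tccctgaggagccctttgagcctT
23 nt form: tccctgaggagccctttgagcct
The tailed 25 nt form made up 25.7% ± 4.15 of the miR-351-5p counts in high glucose, against 23.9% ± 2.30 in low glucose, and the tailed 24 nt form 15.9% ± 2.08 in high glucose, against 11.4% ± 3.84 in low glucose (± SD, n = 3 per group). In all, reads with a non-matching last T were 46.1%, 41.7% and 40.7% of the counts in high glucose, against 32.6%, 33.7% and 42.2% in low glucose. The groups overlapped (exact two-sided permutation p = 0.3). The RefSeq mature form, which ends in the A of the hairpin, was 1.81% ± 0.729 of the counts in high glucose, against 1.05% ± 1.82 in low glucose (± SD, n = 3 per group). Of the counts, 46.3% ± 3.39 in high glucose, against 48.7% ± 4.37 in low glucose, matched the hairpin without a mismatch (± SD, n = 3 per group), so an analysis of exact matches alone leaves out about as many miR-351-5p reads as it keeps. With such matches only, its log2 fold change was 2.67.

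The miR-503-5p reads had the same 5′ end in every library and differed at the 3′ end.
20 nt form: tagcagcgggaacagtactg
19 nt form: tagcagcgggaacagtact
The 20 nt form had 112, 120 and 138 counts in high glucose, against 110, 120 and 60 counts in low glucose, and made up 50.0%, 32.6% and 42.1% of the arm in high glucose, against 80.9%, 87.0% and 81.1% in low glucose. The 19 nt form made up 27.7%, 44.0% and 35.4% in high glucose, against 10.3%, 10.1% and 8.11% in low glucose. Both forms had non-overlapping groups. For the 20 nt form the exact two-sided permutation p was 0.1, or 0.15 adjusted over the 6 arms compared. In the thinned libraries its share was 47.3% in high glucose, against 84.0% in low glucose on average, from only 16 to 32 counts of the arm per high glucose library. The 23 nt RefSeq form was 3.75% ± 1.14 of the arm in high glucose, against 2.77% ± 2.71 in low glucose (± SD, n = 3 per group).

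miR-542-3p showed a like difference in its most counted form.
23 nt form: tgtgacagattgataactgaaag
22 nt form: tgtgacagattgataactgaaa
The 23 nt form was 33.9%, 27.6% and 22.7% of the arm in high glucose, against 51.8%, 57.3% and 43.9% in low glucose, with no overlap (exact two-sided permutation p = 0.1, 0.15 adjusted). The 22 nt form, which is the RefSeq one, was 24.4% ± 2.03 in high glucose, against 19.2% ± 2.38 in low glucose (± SD, n = 3 per group). The mean read length was 22.3 nt in high glucose, against 22.7 nt in low glucose. Thinned, the share of the 23 nt form was 27.1% in high glucose, against 50.7% in low glucose on average.

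For the miR-450 pair the forms show which reads can be told apart.
both: ttttgcgatgtgttcctaat
miR-450a-5p only: ttttgcgatgtgttcctaatgt
miR-450b-5p only: ttttgcgatgtgttcctaatat
The miR-450a-5p form, equal to the RefSeq one, had 1210, 1775 and 1429 counts in high glucose, against 258, 276 and 275 counts in low glucose, which is 75.3% ± 3.53 of its arm in high glucose, against 73.4% ± 5.01 in low glucose (± SD, n = 3 per group). The miR-450b-5p form had 374, 502 and 448 counts in high glucose, against 96, 118 and 116 in low glucose. The counts of the shared 20 nt form were divided between the pair by the number of hairpin names, 386 to miR-450b-5p and 193 to miR-450a-5p in high glucose replicate 1. The shared 20 nt form made up 44.0%, 46.5% and 46.7% of the miR-450b-5p counts in high glucose, against 34.0%, 35.3% and 28.1% in low glucose, without overlap (exact two-sided permutation p = 0.1, 0.15 adjusted).

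**Figure D4:**
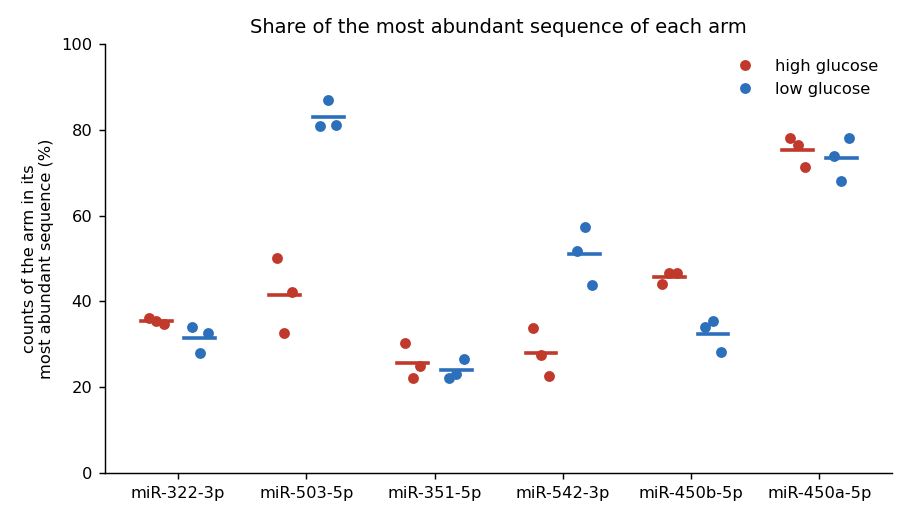
Percentage of each arm's counts in its most abundant sequence, for the 6 arms with 10 or more counts in every library, in the high glucose (red, left) and low glucose (blue, right) libraries, with group means as bars. The groups are widest apart for miR-503-5p, at 32.6% to 50.0% in high glucose, against 80.9% to 87.0% in low glucose.

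miR-322-3p varied at its 5′ end, which shifts the seed.
RefSeq start: aaacatgaagcgctgcaaca
start 1 base earlier: aaaacatgaagcgctgcaaca
Reads with the RefSeq start, at position 61 of the hairpin counted from its 5′ end, were 81.6% ± 1.37 of the arm in high glucose, against 77.0% ± 3.89 in low glucose (± SD, n = 3 per group). Reads starting at position 60, whose seed is AAACATG in place of AACATGA, were 9.51%, 11.2% and 11.99% in high glucose, against 17.8%, 20.7% and 18.1% in low glucose. The groups did not overlap, and thinning left averages of 9.87% in high glucose, against 19.0% in low glucose. In the other 5 of these arms the most common 5′ end held 94.9% or more of the counts in every library.

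Outside the cluster, the miRNAs with the seed of miR-322-5p, the miR-15 and miR-16 family, were listed for 5 of 5 miRNAs, of which 2 had enough counts to be tested and both were lower. Of the untested ones, miR-497-5p went the other way, with 5, 54 and 8 counts in high glucose and 0 in each low glucose library. The levels of miR-195-5p and miR-15a-5p overlapped. miR-16-5p was at 131 ± 32.4 CPM in high glucose, against 389 ± 122 CPM in low glucose, and miR-15b-5p at 16.7 ± 3.46 CPM in high glucose, against 82.3 ± 17.1 CPM in low glucose (± SD, n = 3 per group). Of the miRNAs with the seed of miR-351-5p, both were higher. miR-125a-5p was at 9568 ± 2197 CPM in high glucose, against 1830 ± 428 CPM in low glucose, 5.24-fold higher, and miR-125b-5p at 21287 ± 713 CPM in high glucose, against 15348 ± 1845 CPM in low glucose, 1.39-fold higher (± SD, n = 3 per group). Of the other miRNAs that RefSeq places on the X chromosome, 20 arms were tested, of which 9 were higher and 4 lower, with a median log2 fold change of 0.41. These counts are near the shares over all 297 tested arms, 41.1% higher and 22.6% lower, beside which the small seed lists should be read too. The most abundant of these X chromosome arms were miR-222-3p, with a log2 fold change of 3.05, and miR-221-3p, with 0.91.

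Over the 6 libraries, the annotated arms outside the cluster whose centred log2 CPM profiles were closest to that of miR-351-5p were miR-222-3p, let-7a-5p and let-7c-5p, at Euclidean distances of 0.482, 0.552 and 0.708 among 188 arms compared. Those closest to miR-322-3p, the second most abundant arm over all libraries, were miR-99a-5p at 0.460, miR-125b-5p at 0.484 and miR-340-5p at 0.575. The 6 points of each profile share the split into groups and its difference in depth, so the distances are a description only.

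Markers of some other cell types also differed between the groups, where 63.6% of all 297 tested arms were called in either direction. The erythroid miRNAs miR-451, miR-144 and miR-486 summed to 762 to 954 CPM in high glucose, against 3250 to 6395 CPM in low glucose, with 2 of 2 tested arms lower. The neuronal list summed to 16692 to 22924 CPM in high glucose, against 7109 to 9279 CPM in low glucose, with 2 higher and 1 lower of 4 tested and miR-124 listed at 0. Its members did not move together. On average miR-128-3p was at 18246 CPM in high glucose, against 1992 CPM in low glucose, and miR-218a-5p at 935 CPM, against 4644 CPM. The levels of miR-9a-5p overlapped. The other higher arm, miR-129-5p, had 126, 190 and 94 counts in high glucose and was listed at 0 in low glucose, so its call says little. The liver list summed to 9192 to 15589 CPM in high glucose, against 3197 to 4693 CPM in low glucose, with 2 of 2 tested higher. The leukocyte list, at 49.9 to 249 CPM in high glucose, against 104 to 161 CPM in low glucose, had 3 tested arms with edgeR adjusted p of 0.435 to 0.654. The retinal list, at 31.9 to 116 CPM in high glucose, against 48.7 to 107 CPM in low glucose, had 1 of 1 lower, with miR-96 listed at 0. Its miR-211-5p, with too few counts to be tested, went the other way, with 49, 18 and 62 counts in high glucose, against 2, 0 and 0 in low glucose. The muscle list was at 0 to 60.4 CPM in high glucose and listed at 0 in low glucose, with miR-133a and miR-133b listed at 0 throughout. The part of these RNAs in the cluster's differences was not tested, nor was that of the depth beyond the fits on thinned libraries. In those fits the log2 fold change was 2.56 for miR-351-5p, 0.56 for miR-322-3p and -2.09 for miR-503-5p. It was -1.37 for miR-542-3p, -0.84 for miR-450b-5p and -0.92 for miR-450a-5p.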

How the data were processed

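The authors deposited raw counts of small RNA reads per distinct sequence and hairpin name, per the file headers. The tools cutadapt 1.9.3 and Novoalign 3.02.12 are named per the submitters' processing notes, with no role. The genome build is not given in the sources used here, nor is the hairpin release. A sequence listed under several names has its reads divided among them and rounded.

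Counts were summed per arm and per hairpin with copies joined (Python 3.11.15, pandas 2.3.3, NumPy 2.4.6, SciPy 1.17.1, matplotlib 3.10.9). The whole tables were tested in R 4.3.3 with edgeR 4.0.16 (quasi-likelihood, TMM, filterByExpr with a minimum count of 10, robust dispersions, adjusted p under 0.05). The fit was also run on simulated counts with known changes. These were drawn without a listing minimum, so they do not test its effect on low counts. The alternatives are given in the closing section. DESeq2 1.42.0 was one of them. Exact permutation tests over libraries (two-sided) compared the shares. Arms with under 10 counts in a library got no test of their forms. RefSeq sequences and positions are of GRCr8, with a chromosome found for 236 of 240 annotated miRNAs.

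All members and lists were chosen with earlier results of these data known. Named were every member arm, the 3 most alike arms of the 2 most abundant members, and the 2 most abundant miRNAs of the seed lists. P-values measure the spread between libraries, which may be technical. Intervals cover counting error only.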

Additional observations from a re-analysis of the deposited data

How the results depend on the processing

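No log2 fold change of a cluster arm or hairpin changed sign under any alternative run. The difference in mir-322's share of the cluster's counts (high minus low glucose), 0.517 percentage points, was -0.556 without high glucose replicate 2, -0.374 without high glucose replicate 3 and -0.924 without low glucose replicate 3, and reached 2.48 without high glucose replicate 1 (1.29 thinned). That in the share of the most abundant miR-450a-5p sequence, 1.88, was -0.807 with exact matches and 5.32 thinned; neither had been beyond the spread between libraries. For miR-322-3p that difference was 3.89, and 5.95 thinned. The log2 ratio of miR-450a-5p over miR-450b-5p differed by 0.0028, by 0.32 from unshared sequences, and by -0.069 to 0.062 without 1 library. The 5 higher arms became 3 with upper quartile scaling and 3 with exactly matching sequences only, where 9 arms were tested. They became 2 in thinned libraries and 1 to 2 without 1 high glucose library, where only 6 arms were tested. Without 1 low glucose library, with 10 arms tested, they became 3 to 5. The 4 lower arms became 2 to 4. The 2 higher hairpins became 1 with relative log expression scaling, library totals, DESeq2 or the replicate block, and 1 to 2 without 1 library. Relative log expression and library totals moved the median log2 fold change of all arms by -0.12 and -0.11. The mir-322 5p share difference (high minus low glucose) of -1.99 percentage points was -5.41 from the most abundant sequence only and -0.548 without low glucose replicate 3. That of mir-503, -20.2, was -10.5 thinned, -11.2 with exact matches and -12.2 from the most abundant sequence, and that of mir-351, -0.48, was -0.157 with exact matches, -0.791 from the most abundant sequence and -0.282 thinned. With exact matches the difference in share of the cluster's counts was 6.76 points for mir-322 in place of 0.517, and 31.8 for mir-351 in place of 42.9. The cause was not tested. Thinned shares, unshared sequences and the ratios' alternatives were chosen after seeing the data.

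With a replicate block 163 of all arms were called in place of 189; among the cluster's arms the miR-503-3p call alone was lost (edgeR adjusted p = 0.0835). The deviations of same-numbered libraries from their group means correlated at 0.0445, -0.000655 and -0.0284, and 2 of 6 libraries correlated best with their own number. This check showed no pairing by replicate number, but with 3 libraries per group it cannot exclude one. The lower depth of the low glucose libraries limits the minor arms most.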
